A study of Mus musculus with 23 samples.

Results

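CRISPR-Ptch1 tumours of the mouse cerebellum were set against tumours of germline Ptch1+/- mice, in 7 of the 23 arrays of the series. Members were chosen by sample title: 3 CRISPR-Ptch1 arrays (EP 1, EP 2 and TF) and 4 Ptch1+/- arrays (tumours 1 to 4). For each of 18194 genes, 1 probe set was taken, the brightest on average across the series among those annotated to a single gene symbol. The EP tumours followed in utero electroporation of wild-type embryos with a plasmid for Cas9 and a guide RNA against Ptch1. The study's methods give the TF tumours as polyethylenimine transfection of newborn Trp53-/- animals with the same kind of plasmid. The Ptch1+/- tumours arose in mice that carried 1 disrupted Ptch1 allele in every cell from conception, with no Cas9 or plasmid. The labels give the strain CD1 and the tissue cerebellar tumour for all 7, while the methods give C57BL/6N for transfected newborns. Age, sex and array batch are not labelled for single tumours, and age and array batch cannot be told apart from the model. Only 1 array stands for the TF tumours, so delivery route, time of delivery, Trp53 genotype and strain cannot be told apart within the CRISPR-Ptch1 group. Nothing in the labels says which arrays share an animal or a litter, so the p-values reflect scatter among arrays, which may be technical in part. That scatter was pooled over all 23 arrays of the series in 6 groups, not taken from these 7 alone.

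Patched1, the product of Ptch1, is the receptor of Sonic hedgehog and holds the transducer Smoothened in check at the primary cilium. Loss of Patched1 frees Smoothened, and the GLI transcription factors then switch on a programme that includes Ptch1 itself, Gli1 and genes of the cell cycle. Granule neuron precursors of the cerebellum divide in response to this signal, and tumours of the SHH group of medulloblastoma carry their features.

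The arrays of the 2 models differed in RNA measures over the whole transcriptome. All expression values are log2 RMA values, the array signal after background correction, quantile normalisation and summary of the probes of a probe set, so a difference of 1 is 2-fold. The control probe sets of Gapdh at its 3′ and 5′ ends differed by -0.08 to -0.02 log2 units on the CRISPR-Ptch1 arrays and by 0.81 to 1.34 on the Ptch1+/- arrays. The gap for beta-actin was 0.46 to 0.48 on the CRISPR-Ptch1 arrays and 1.16 to 1.73 on the Ptch1+/- arrays. Spiked poly-A control RNAs averaged 7.52 to 7.73 on the CRISPR-Ptch1 arrays and 8.23 to 9.75 on the Ptch1+/- arrays. None of these ranges overlapped, and among the Ptch1+/- arrays tumour 1 had the smallest gaps and tumour 4 the largest. The median over the 18194 genes was 7.46 to 7.55 on the CRISPR-Ptch1 arrays and 6.94 to 7.22 on the Ptch1+/- arrays. The part of these measures in the gene differences was not tested, and many list counts are also given with Ptch1+/- tumour 1 as the only array of its group.

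Of 18194 genes, 6704 (36.8%) differed between CRISPR-Ptch1 and Ptch1+/- tumours at an adjusted p under 0.05 in limma (Benjamini-Hochberg over all genes, n = 3 and 4). Among these, 5189 genes (28.5% of all) were higher in CRISPR-Ptch1 tumours and 1515 (8.33%) were lower. The median difference over all genes was 0.12 on the deposited values. This balance rested on the scaling. The median gene stood at -0.03 after quantile normalisation of the gene table, at -0.01 after cyclic loess, at 0.18 with arrays centred on all probe sets and at -0.36 with arrays centred on their genes. Genes higher in CRISPR-Ptch1 tumours made up 77.4% of the calls as deposited, 82.5% with arrays centred on all probe sets, 51.7% after cyclic loess, 49% after quantile normalisation and 20.7% with arrays centred on genes. Over all genes, arrays centred on genes gave 11.5% higher and 44% lower, cyclic loess 18.9% and 17.6%, quantile normalisation 18.2% and 18.9%, and arrays centred on all probe sets 31.5% and 6.68%. Calls of the same direction under the deposited scale and all 4 other scalings were made for 2050 genes (11.3%) higher and 1215 genes (6.68%) lower in CRISPR-Ptch1 tumours. The calls named below held under all 4 scalings unless the sentence says otherwise. With only tumour 1 in the Ptch1+/- group, 1972 genes (10.8%) were higher and 1039 (5.71%) lower in CRISPR-Ptch1 tumours. List counts below under another scaling or with tumour 1 alone stand against the shares over all genes for that setting. Values of the 2 models did not overlap for 6811 genes (37.4%), of which 5026 (27.6%) were higher and 1785 (9.81%) lower in CRISPR-Ptch1 tumours.

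**Figure D1:**
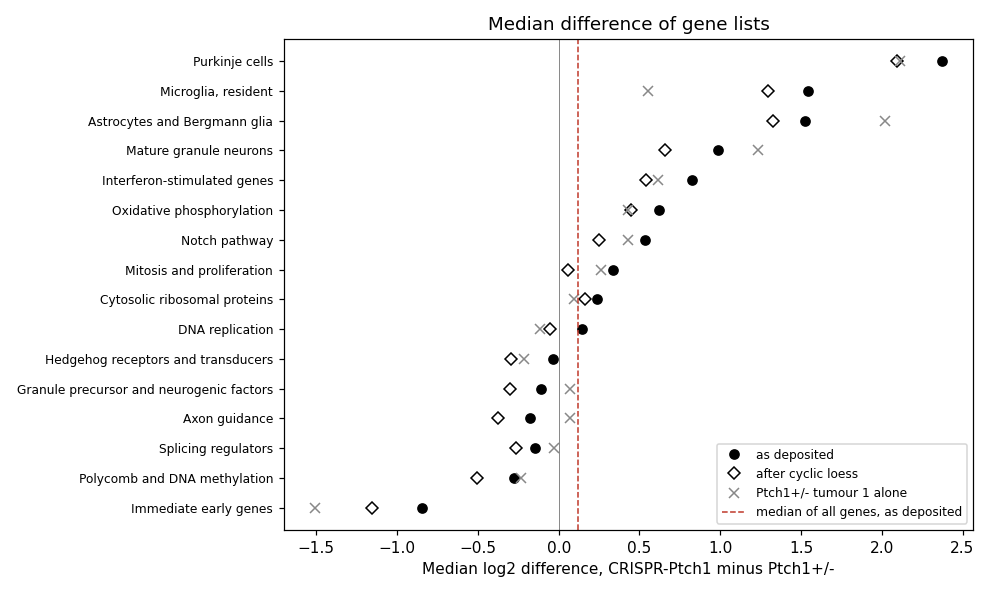
Median log2 difference, CRISPR-Ptch1 minus Ptch1+/- tumours, of 16 gene lists (rows), on the deposited values (filled circles), after cyclic loess (open diamonds) and with Ptch1+/- tumour 1 as the only array of its group (crosses). The dashed line is the median of all 18194 genes as deposited, 0.12; Purkinje cell genes lay farthest to the right at 2.37 and immediate early genes farthest to the left at -0.85.

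Genes of the Hedgehog pathway moved in different directions. Of 21 measured receptors and transducers, 6 were higher and 5 lower in CRISPR-Ptch1 tumours, with a median difference of -0.03, against 28.5% higher and 8.33% lower over all genes. With arrays centred on genes the list gave 2 higher and 11 lower, against 11.5% and 44% over all genes. After cyclic loess it gave 4 and 7, against 18.9% and 17.6%, and with Ptch1+/- tumour 1 alone 4 and 4, against 10.8% and 5.71%.

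Ptch1, the gene disrupted in both models, is read by 3 probe sets that did not move together. The brightest had 13.09, 12.78 and 13.07 in EP 1, EP 2 and TF, against 11.84, 11.50, 12.26 and 11.80 in the 4 Ptch1+/- tumours (log2 difference 1.13 ± 0.21 (SE), adjusted p = 0.000278). It was higher in every CRISPR-Ptch1 array. A dimmer probe set had 4.91, 4.89 and 6.96 in EP 1, EP 2 and TF, against 7.55, 6.80, 6.84 and 7.28 in the 4 Ptch1+/- tumours (log2 difference -1.53 ± 0.48 (SE), adjusted p = 0.0146 over all 45101 probe sets). The third lay between 5.61 and 6.15 on all 7 arrays (log2 difference -0.13 ± 0.14 (SE), adjusted p = 0.513). Where these probe sets lie relative to the guided second exon was not analysed here, so none of them checks the disruption, and no single direction is given for the gene.

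Smo, the transducer that Patched1 restrains, had 10.41, 10.16 and 10.79 in EP 1, EP 2 and TF, against 11.88, 11.69, 11.43 and 11.63 in the 4 Ptch1+/- tumours (log2 difference -1.20 ± 0.27 (SE), adjusted p = 0.00128). All 3 of its probe sets were lower in CRISPR-Ptch1 tumours. The co-receptors of Sonic hedgehog on the cell surface differed in sign. Boc had 10.06, 9.84 and 10.78 in EP 1, EP 2 and TF, against 11.24, 11.43, 10.71 and 10.90 in the 4 Ptch1+/- tumours (log2 difference -0.84 ± 0.21 (SE), adjusted p = 0.00275), with TF inside the Ptch1+/- range. Gas1 also fell by 0.57 ± 0.17 (SE), with values that did not overlap (adjusted p = 0.0111). Cdon, a relative of Boc, had 7.78, 7.34 and 5.91 in EP 1, EP 2 and TF, against 5.54, 6.39, 5.79 and 5.76 in the 4 Ptch1+/- tumours (log2 difference 1.14 ± 0.34 (SE), adjusted p = 0.0112). The Cdon difference came from the EP tumours, TF lay inside the Ptch1+/- range, and the call held under only 1 of the 4 scalings. The call was lost without EP 1 (0.75, adjusted p = 0.112) or EP 2 (0.97, adjusted p = 0.0601), and that of Gas1 without EP 2 (-0.44, adjusted p = 0.0812).

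Downstream, Sufu, which binds GLI proteins and keeps them inactive, had 9.77, 9.62 and 9.57 in EP 1, EP 2 and TF, against 9.95, 9.85, 10.43 and 10.52 in the 4 Ptch1+/- tumours (log2 difference -0.53 ± 0.20 (SE), adjusted p = 0.0374), and the call held under 3 of 4 scalings. It was lost without any one of EP 1, EP 2, TF or Ptch1+/- tumours 3 and 4 (adjusted p = 0.0533 to 0.123). Spop, which marks GLI proteins for degradation, was higher by 0.82 (adjusted p = 0.00231), and Prkaca, the catalytic subunit of protein kinase A that inhibits the pathway, by 0.53 (adjusted p = 0.00162), each under 3 of 4 scalings. Gli1, a factor that is itself a pathway target, had 9.47, 9.01 and 10.04 in EP 1, EP 2 and TF, against 10.71, 9.85, 10.42 and 10.39 in the 4 Ptch1+/- tumours (log2 difference -0.84 ± 0.24 (SE), adjusted p = 0.00897). Its TF value lay between those of Ptch1+/- tumours 2 and 4, while both EP values lay below all Ptch1+/- values. Without EP 2 the difference was -0.59 (adjusted p = 0.0835). Gli2, the main activator, had 11.26, 10.96 and 11.58 in EP 1, EP 2 and TF, against 11.72, 11.36, 11.61 and 11.88 in the 4 Ptch1+/- tumours (log2 difference -0.37 ± 0.21 (SE), adjusted p = 0.182), which missed the threshold on the deposited values and passed after cyclic loess (-0.62, adjusted p = 0.0191) and with arrays centred on genes (-0.85, adjusted p = 0.00209). Gli3, mostly a repressor, had 7.17, 8.01 and 7.65 in EP 1, EP 2 and TF, against 5.37, 6.02, 6.34 and 5.95 in the 4 Ptch1+/- tumours (log2 difference 1.69 ± 0.38 (SE), adjusted p = 0.00156), and the groups did not overlap.

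**Figure D2:**
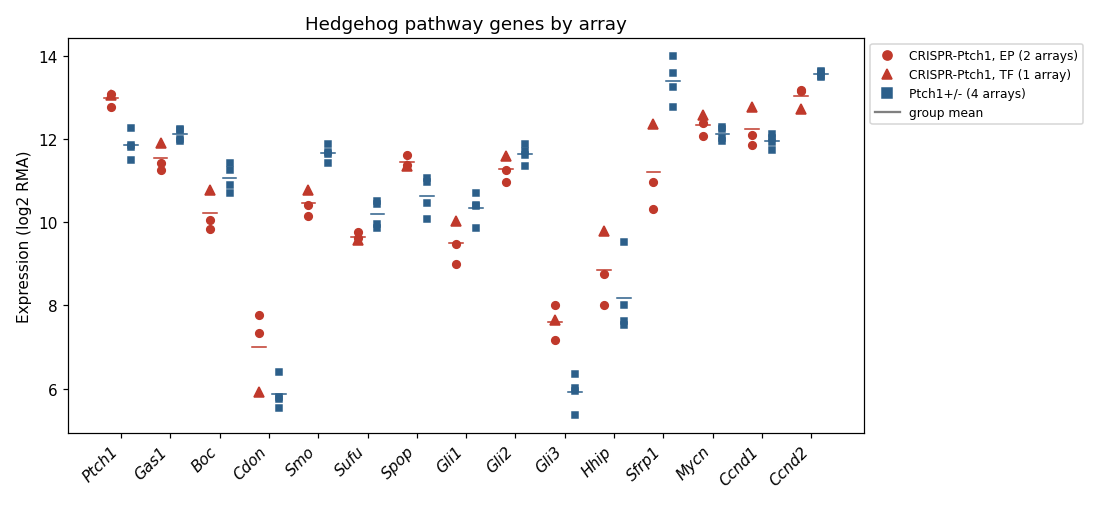
Expression (log2 RMA, vertical axis) of 15 Hedgehog pathway genes in the 2 EP arrays (red circles) and the TF array (red triangles) of the CRISPR-Ptch1 group and in the 4 Ptch1+/- arrays (blue squares), with group means as lines. Smo and Sfrp1 lay lower in all 3 CRISPR-Ptch1 tumours, and Gli3 and the brightest Ptch1 probe set lay higher.

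The induced genes of the pathway did not share a direction either. Of 19 measured genes induced by SHH or typical of SHH tumours, 5 were higher and 4 lower in CRISPR-Ptch1 tumours (median difference 0.63), against 28.5% and 8.33% over all genes. With arrays centred on genes 3 were higher and 7 lower, against 11.5% and 44%, and with Ptch1+/- tumour 1 alone 2 and 3, against 10.8% and 5.71%. Sfrp1, a secreted WNT inhibitor that marks SHH tumours, had 10.96, 10.32 and 12.37 in EP 1, EP 2 and TF, against 13.998, 13.57, 12.77 and 13.25 in the 4 Ptch1+/- tumours (log2 difference -2.18 ± 0.39 (SE), adjusted p = 0.000198). All 5 of its probe sets were lower. Hhip, which binds the ligand and dampens the signal, had 8.76, 8.001 and 9.79 in EP 1, EP 2 and TF, against 9.53, 7.54, 8.02 and 7.63 in the 4 Ptch1+/- tumours (log2 difference 0.67 ± 0.53 (SE), adjusted p = 0.351). The Hhip ranges overlapped and no call was made. Mycn, a MYC family factor driven by SHH, differed by 0.21 (adjusted p = 0.486) and Ccnd1, cyclin D1, by 0.29 (adjusted p = 0.321), neither past the threshold. Ccnd2, cyclin D2 of granule precursors, had 13.16, 13.19 and 12.72 in EP 1, EP 2 and TF, against 13.52, 13.49, 13.60 and 13.63 in the 4 Ptch1+/- tumours (log2 difference -0.54 ± 0.20 (SE), adjusted p = 0.0391), a call that held under 2 of 4 scalings although the values did not overlap. It was lost on leaving out any array but EP 2 (adjusted p = 0.0512 to 0.191), and was -0.39 without TF. These values are for the brightest probe set of Ccnd2. All 7 of its probe sets had a negative difference on the deposited values, and 5 of them were called lower.

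Eya1, a phosphatase and cofactor of transcription, had 7.58, 7.44 and 7.57 in EP 1, EP 2 and TF, against 4.68, 5.85, 5.32 and 5.55 in the 4 Ptch1+/- tumours (log2 difference 2.18 ± 0.47 (SE), adjusted p = 0.00103). Pdlim3, an actin-binding protein used as an SHH marker, had 7.25, 7.16 and 10.92 in EP 1, EP 2 and TF, against 7.66, 5.91, 6.26 and 6.07 in the 4 Ptch1+/- tumours (log2 difference 1.97 ± 0.66 (SE), adjusted p = 0.0237). Its difference came from the TF tumour alone, and it held under 2 of 4 scalings. Without TF it was 0.73 (adjusted p = 0.278), and without Ptch1+/- tumour 2 or 4 it also missed the threshold (adjusted p = 0.0624 and 0.0585). Igf2, a growth factor that SHH medulloblastomas need in mice, had 9.48, 8.40 and 11.17 in EP 1, EP 2 and TF, against 7.23, 8.89, 8.95 and 7.87 in the 4 Ptch1+/- tumours (log2 difference 1.45 ± 0.77 (SE), adjusted p = 0.15), with the TF tumour above the rest. Otx1, a homeobox factor, had 10.11, 10.39 and 6.82 in EP 1, EP 2 and TF, against 11.14, 5.68, 10.48 and 5.15 in the 4 Ptch1+/- tumours (log2 difference 0.99 ± 1.10 (SE), adjusted p = 0.529). It was high in 4 tumours and low in 3, on both sides of the comparison. Bcl2, an apoptosis inhibitor, was higher by 0.98 on its brightest probe set, but 2 of its 5 probe sets were called lower, and no direction is given for it.

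Zic1 and Atoh1, markers of the granule cell lineage, were high on all 7 arrays. Zic1, a zinc finger factor of that lineage, had 13.71, 13.81 and 13.50 in EP 1, EP 2 and TF, against 13.88, 14.20, 13.97 and 14.18 in the 4 Ptch1+/- tumours (log2 difference -0.38 ± 0.33 (SE), adjusted p = 0.396). It was called lower with arrays centred on genes (-0.86, adjusted p = 0.0203). With no test, Zic1 averaged 13.94 in adult cerebellum and 13.58 in granule neuron precursors, so its level does not tell precursors from mature tissue. For Atoh1 these averages were 4.47 and 9.71. Atoh1, which keeps precursors dividing, had 10.98, 10.63 and 12.04 in EP 1, EP 2 and TF, against 10.90, 9.93, 10.59 and 9.86 in the 4 Ptch1+/- tumours (log2 difference 0.89 ± 0.29 (SE), adjusted p = 0.019), and the call held under 2 of 4 scalings. Without TF the difference was 0.48 (adjusted p = 0.188), and the call was also lost without Ptch1+/- tumour 2 or 4 (adjusted p = 0.0613 and 0.0679). Of 24 measured granule precursor and neurogenic factors, 1 was higher and 4 lower, against 28.5% and 8.33% over all genes. With Ptch1+/- tumour 1 alone the count was 1 higher and 0 lower. Barhl2, a homeobox factor, had 8.39, 8.34 and 8.01 in EP 1, EP 2 and TF, against 8.99, 9.14, 9.44 and 9.37 in the 4 Ptch1+/- tumours (log2 difference -0.98 ± 0.17 (SE), adjusted p = 0.00015). Cntn2 (TAG-1), an adhesion molecule of granule cells that have stopped dividing, had 11.23, 11.48 and 8.77 in EP 1, EP 2 and TF, against 11.95, 12.82, 11.53 and 12.17 in the 4 Ptch1+/- tumours (log2 difference -1.62 ± 0.49 (SE), adjusted p = 0.0128), lowest in the TF tumour. Without TF it was -0.76 (adjusted p = 0.151). Zic2 fell by 0.63 (adjusted p = 0.0157). Without TF it was -0.43 (adjusted p = 0.123) and without Ptch1+/- tumour 4 -0.54 (adjusted p = 0.0549). Pax6 was called lower on 2 of its 5 probe sets and higher on 1. Neurod1, a factor of granule cell differentiation, was near 11.91 in the TF tumour, against 13.71 and 13.91 in EP 1 and EP 2 and 13.38, 13.70, 13.55 and 13.86 in the 4 Ptch1+/- tumours, with no call between the models on the deposited values (adjusted p = 0.262). Neurod1 was called lower when EP 2 was left out (-0.81, adjusted p = 0.0423), when TF was the only CRISPR-Ptch1 array (-1.71, adjusted p = 0.000113) and with arrays centred on genes (-0.93, adjusted p = 0.0105).

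Proliferation genes split. Of 23 measured genes of mitosis, 9 were higher and 2 lower in CRISPR-Ptch1 tumours (median difference 0.34), against 28.5% and 8.33% over all genes, with 4 higher and 2 lower after cyclic loess and 1 of each with Ptch1+/- tumour 1 alone. Ube2c, which feeds the anaphase-promoting complex, had 12.67, 12.60 and 12.89 in EP 1, EP 2 and TF, against 11.70, 11.69, 12.05 and 11.58 in the 4 Ptch1+/- tumours (log2 difference 0.97 ± 0.15 (SE), adjusted p = 5.64e-05). Kif20a, a mitotic kinesin, had 9.89, 9.68 and 10.23 in EP 1, EP 2 and TF, against 9.21, 9.01, 8.76 and 8.50 in the 4 Ptch1+/- tumours (log2 difference 1.06 ± 0.22 (SE), adjusted p = 0.000611). Ccnb2, cyclin B2, was higher by 1.12 (adjusted p = 0.00145), and Aurkb, Aurora kinase B, by 0.84 (adjusted p = 0.00127, 3 of 4 scalings). In contrast Mki67, the Ki-67 antigen, had 12.43, 12.57 and 12.56 in EP 1, EP 2 and TF, against 13.45, 13.20, 13.30 and 13.24 in the 4 Ptch1+/- tumours (log2 difference -0.78 ± 0.27 (SE), adjusted p = 0.0278). Foxm1, a factor that drives mitotic genes, had 7.69, 7.54 and 7.84 in EP 1, EP 2 and TF, against 8.45, 8.15, 8.46 and 8.34 in the 4 Ptch1+/- tumours (log2 difference -0.66 ± 0.12 (SE), adjusted p = 0.000312). Both were lower in every CRISPR-Ptch1 array. The call of Mki67 was lost without any one CRISPR-Ptch1 array or without Ptch1+/- tumour 1 (adjusted p = 0.0548 to 0.0847). Top2a, topoisomerase II alpha, differed by 0.17 (adjusted p = 0.58) on its brightest probe set, and 1 of its other probe sets was called lower.

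Of 27 measured DNA replication genes, 7 were higher and 6 lower, against 28.5% and 8.33% over all genes. The list gave 3 higher and 9 lower after cyclic loess, against 18.9% and 17.6% over all genes. It gave 2 and 12 with arrays centred on genes, against 11.5% and 44%, and 0 and 4 with Ptch1+/- tumour 1 alone, against 10.8% and 5.71%. Tyms, thymidylate synthase, fell by 1.43 on its brightest probe set, while 1 other probe set was called higher. Orc1, of the origin recognition complex, had 6.48, 6.41 and 6.61 in EP 1, EP 2 and TF, against 7.47, 7.40, 7.50 and 7.61 in the 4 Ptch1+/- tumours (log2 difference -0.996 ± 0.17 (SE), adjusted p = 0.000145), on 1 of its 2 probe sets. Mcm2, of the replicative helicase, fell by 0.64 (adjusted p = 0.00835), on both probe sets, and missed the threshold without EP 2 (-0.52, adjusted p = 0.0586). Pcna, the sliding clamp, was higher by 0.53 (adjusted p = 0.0086, 3 of 4 scalings).

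Regulators of the G1 phase differed one by one. Cdkn1b, the inhibitor p27, had 11.01, 11.20 and 11.43 in EP 1, EP 2 and TF, against 11.81, 11.94, 11.98 and 11.78 in the 4 Ptch1+/- tumours (log2 difference -0.66 ± 0.13 (SE), adjusted p = 0.000352). E2f1, a factor that opens S phase, had 8.85, 8.93 and 8.49 in EP 1, EP 2 and TF, against 9.55, 9.36, 10.20 and 10.14 in the 4 Ptch1+/- tumours (log2 difference -1.06 ± 0.24 (SE), adjusted p = 0.00152). Cdkn1c, the imprinted inhibitor p57, had 7.78, 7.86 and 8.46 in EP 1, EP 2 and TF, against 6.81, 6.44, 7.03 and 6.29 in the 4 Ptch1+/- tumours (log2 difference 1.39 ± 0.32 (SE), adjusted p = 0.00159). Each of these 3 genes had separate groups, lower in CRISPR-Ptch1 tumours for p27 and E2f1 and higher for p57. Rbl2, a retinoblastoma relative, was higher by 1.03 (adjusted p = 0.000902), Cdk4 by 0.73 (adjusted p = 0.0011, 3 of 4 scalings) and the inhibitor Cdkn2d by 0.81 (adjusted p = 0.000222, 3 of 4 scalings). Cdkn2a, which encodes p16 and p19ARF, had 7.26, 8.36 and 10.22 in EP 1, EP 2 and TF, against 8.84, 7.77, 8.06 and 8.02 in the 4 Ptch1+/- tumours (log2 difference 0.44 ± 0.74 (SE), adjusted p = 0.694), highest in TF. Of 26 measured p53 target genes, 3 were higher and 4 lower, against 28.5% and 8.33% over all genes, with 1 and 9 after cyclic loess and 2 and 3 with tumour 1 alone. The CRISPR-Ptch1 group held both wild-type and Trp53-/- backgrounds by the methods. Cdkn1a, the inhibitor p21, had 8.40, 8.82 and 9.17 in EP 1, EP 2 and TF, against 9.85, 9.14, 9.49 and 9.63 in the 4 Ptch1+/- tumours (log2 difference -0.73 ± 0.33 (SE), adjusted p = 0.0882) and was not called on the deposited values, but was called lower under 3 of the 4 scalings (-1.21 to -1.03, adjusted p = 0.00319 to 0.0167). Ddb2, a DNA repair gene, fell by 0.61 (adjusted p = 0.0222), and Sesn2, a stress gene, fell by 0.60 (adjusted p = 0.00704) and Bbc3, an apoptosis gene, fell by 0.56 (adjusted p = 0.00714). In contrast Rrm2b, a ribonucleotide reductase subunit, was higher by 1.17 (adjusted p = 6.93e-05) and by 0.69 with arrays centred on genes (adjusted p = 0.00132). Of its 4 probe sets, 2 were called higher and 0 lower. The call of Ddb2 was lost without EP 1 or EP 2 (adjusted p = 0.0651 and 0.0561) and that of Sesn2 without EP 2 (-0.47, adjusted p = 0.0571).

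Immediate early genes were lower in CRISPR-Ptch1 tumours. These genes are transcribed within minutes of a stimulus, through factors such as SRF on CArG boxes and CREB on the CRE, and include the AP-1 and EGR families. Of 26 measured members, 0 were higher and 14 lower by limma, against 8.33% lower over all genes, and 12 were not called.

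The sequence around the transcription start of 3 of these genes is shown, with exact matches to these elements marked. Each runs from 250 bases before to 50 bases after the transcription start, from RefSeq on GRCm38.p6, and capitals mark a full CRE (TGACGTCA) or CArG box on either strand. A sequence without capitals, as for Fos, has no exact match in this window. Variant sites and sites farther away were not searched, so it does not show that the gene lacks these elements. Fos lies on the + strand (chr12:85473640-85473939), Dusp1 on the - strand (chr17:26508423-26508722) and Egr2 on the + strand (chr10:67537316-67537615, 1 of its 5 listed starts). The Egr2 start was picked because it holds a match.
Fos: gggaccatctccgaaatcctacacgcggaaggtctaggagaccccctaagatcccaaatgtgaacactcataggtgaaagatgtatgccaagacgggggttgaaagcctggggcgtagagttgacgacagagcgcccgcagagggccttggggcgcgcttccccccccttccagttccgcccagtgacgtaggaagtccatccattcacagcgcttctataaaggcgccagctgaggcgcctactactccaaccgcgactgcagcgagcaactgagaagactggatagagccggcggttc
Dusp1: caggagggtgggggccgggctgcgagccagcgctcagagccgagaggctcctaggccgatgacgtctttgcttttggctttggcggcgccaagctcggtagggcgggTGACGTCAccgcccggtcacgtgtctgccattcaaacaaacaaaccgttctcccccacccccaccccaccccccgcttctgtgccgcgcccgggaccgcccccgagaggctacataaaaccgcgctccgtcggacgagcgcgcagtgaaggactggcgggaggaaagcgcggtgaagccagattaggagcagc
Egr2: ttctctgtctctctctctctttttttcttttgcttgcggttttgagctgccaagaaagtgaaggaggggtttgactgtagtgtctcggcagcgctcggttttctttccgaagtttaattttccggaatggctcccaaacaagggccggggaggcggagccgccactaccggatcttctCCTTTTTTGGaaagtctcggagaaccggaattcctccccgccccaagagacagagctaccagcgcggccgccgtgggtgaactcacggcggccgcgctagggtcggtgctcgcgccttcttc
Among 22 list members with a known promoter, the CRE was found in 3 (Dusp1, Btg2 and Maff) and the CArG box in 2 (Egr2 and Zfp36). Here a match at any listed start of a gene was counted. Over all 32851 single promoters of this length, 1.79% held the CRE and 1.63% the CArG box. The counts are per gene and these shares per promoter, so they are not on the same scale. A match is a description of these letters only.

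Fos, the founding AP-1 factor, had 8.31, 8.41 and 8.25 in EP 1, EP 2 and TF, against 13.62, 12.74, 12.59 and 12.70 in the 4 Ptch1+/- tumours (log2 difference -4.59 ± 0.43 (SE), adjusted p = 4.9e-07). The TF and EP tumours agreed within 0.2 log2 units, and every Ptch1+/- tumour stood more than 4 units higher. Fosb had 3.85, 3.96 and 4.09 in EP 1, EP 2 and TF, against 10.35, 8.34, 9.61 and 8.69 in the 4 Ptch1+/- tumours (log2 difference -5.28 ± 0.67 (SE), adjusted p = 7.92e-06). The CRISPR-Ptch1 values of Fosb lay close to background, under the arrays' lower quartile of 4.40 to 4.61, so its difference is a lower limit. Egr1, a zinc finger factor, had 9.47, 9.39 and 10.60 in EP 1, EP 2 and TF, against 12.43, 12.78, 12.95 and 13.63 in the 4 Ptch1+/- tumours (log2 difference -3.13 ± 0.32 (SE), adjusted p = 1.22e-06). Jun, the AP-1 partner of Fos, had 10.89, 10.84 and 11.01 in EP 1, EP 2 and TF, against 12.96, 12.78, 12.76 and 12.61 in the 4 Ptch1+/- tumours (log2 difference -1.86 ± 0.24 (SE), adjusted p = 9.34e-06). These 4 genes separated the models with no overlapping value. Npas4, a neuronal activity factor, had 4.78, 4.82 and 4.98 in EP 1, EP 2 and TF, against 8.83, 7.09, 7.65 and 7.09 in the 4 Ptch1+/- tumours (log2 difference -2.81 ± 0.43 (SE), adjusted p = 4.17e-05). Klf4, a Krüppel-like factor, had 6.23, 6.11 and 7.27 in EP 1, EP 2 and TF, against 11.10, 8.58, 9.57 and 7.82 in the 4 Ptch1+/- tumours (log2 difference -2.73 ± 0.59 (SE), adjusted p = 0.00103). Dusp1, the MAP kinase phosphatase whose promoter is shown with its CRE, had 10.11, 10.32 and 9.50 in EP 1, EP 2 and TF, against 12.19, 11.84, 11.88 and 11.77 in the 4 Ptch1+/- tumours (log2 difference -1.94 ± 0.29 (SE), adjusted p = 3.39e-05). Ccn1, a secreted matrix protein, had 5.998, 6.35 and 5.997 in EP 1, EP 2 and TF, against 9.71, 7.62, 7.62 and 7.05 in the 4 Ptch1+/- tumours (log2 difference -1.89 ± 0.44 (SE), adjusted p = 0.00182). Tumour 1 was the highest Ptch1+/- array for Npas4, Klf4, Dusp1 and Ccn1. Egr2, whose promoter is shown with its CArG box, fell by 1.29 (adjusted p = 0.000443). Nr4a2, an orphan nuclear receptor, fell by 1.18 on its brightest probe set, and all 6 of its probe sets had the same sign.

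Other members did not pass on the deposited values. Klf2 had 6.46, 6.34 and 6.82 in EP 1, EP 2 and TF, against 9.79, 6.57, 7.39 and 6.43 in the 4 Ptch1+/- tumours (log2 difference -1.003 ± 0.50 (SE), adjusted p = 0.126), and Atf3 had 6.65, 6.59 and 6.39 in EP 1, EP 2 and TF, against 9.34, 6.37, 7.36 and 6.50 in the 4 Ptch1+/- tumours (log2 difference -0.85 ± 0.47 (SE), adjusted p = 0.172). In both, Ptch1+/- tumours 1 and 3 lay above the CRISPR-Ptch1 values and tumours 2 and 4 lay among or next to them. Klf2 was called lower without tumour 2 (-1.33, adjusted p = 0.0495) or tumour 4 (-1.38, adjusted p = 0.0382), under 3 of the 4 scalings (adjusted p = 0.0109 to 0.041) and with tumour 1 alone (-3.25). Atf3 was called lower after quantile normalisation and with arrays centred on genes (adjusted p = 0.0294 and 0.0141) and with tumour 1 alone (-2.80). Fosl2 differed by 0.24 (adjusted p = 0.568) and Arc by -0.15 (adjusted p = 0.552), with Arc near 5 on every array and called lower with arrays centred on genes (-0.63, adjusted p = 0.00652). The list gave 0 higher and 18 lower after cyclic loess, 0 and 20 after quantile normalisation, 0 and 21 with arrays centred on genes, and 0 and 18 with Ptch1+/- tumour 1 alone. As a reference, with no test, Fos averaged 12.31 in MERP tumours, 8.14 in GTML tumours, 12.43 in granule neuron precursors and 8.75 in adult cerebellum, where MERP and GTML are 2 other mouse models of medulloblastoma. How long tissue waited before freezing is not labelled, and its part in the result was not tested.

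**Figure D3:**
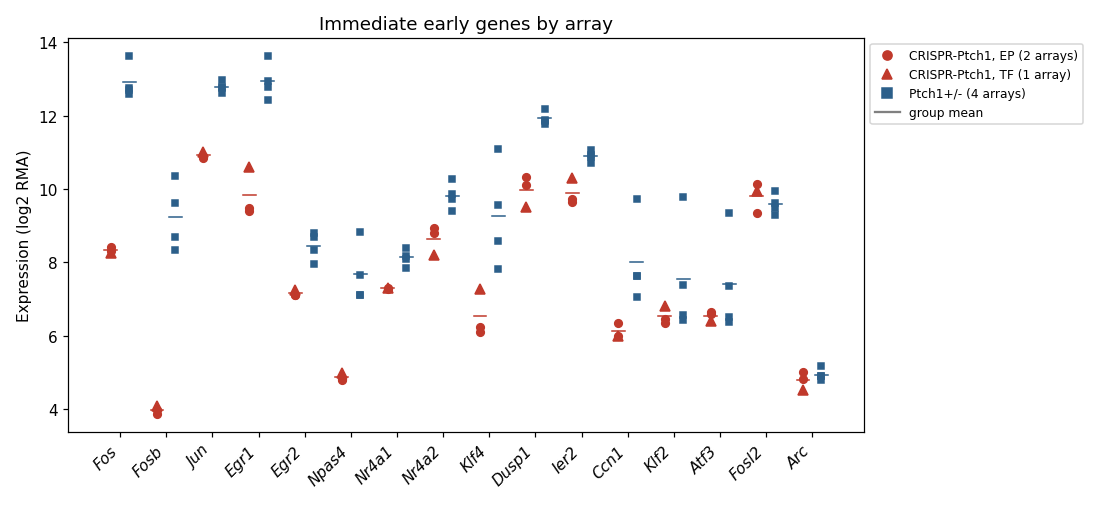
Expression (log2 RMA, vertical axis) of 16 immediate early genes in EP (red circles), TF (red triangles) and Ptch1+/- (blue squares) arrays, with group means as lines. Fos, Fosb, Jun and Egr1 lay lower in all 3 CRISPR-Ptch1 tumours than in every Ptch1+/- tumour, while Fosl2 and Arc overlapped.

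Most listed genes of the respiratory chain were higher in CRISPR-Ptch1 tumours. Of 34 measured oxidative phosphorylation genes, 28 were higher and 0 lower, against 28.5% and 8.33% of all genes, with a median of 0.62. Cox7c, of complex IV, is outside this list and was called lower (log2 difference -2.57), as given further below. After cyclic loess 23 were higher and 0 lower, with arrays centred on genes 8 higher and 3 lower, and with Ptch1+/- tumour 1 alone 9 higher and 0 lower. Sdhb, of complex II, had 11.73, 11.85 and 11.74 in EP 1, EP 2 and TF, against 10.62, 10.84, 10.34 and 10.18 in the 4 Ptch1+/- tumours (log2 difference 1.28 ± 0.17 (SE), adjusted p = 1.06e-05). Atp5o, of ATP synthase, had 12.61, 12.71 and 12.55 in EP 1, EP 2 and TF, against 11.98, 11.76, 11.14 and 10.90 in the 4 Ptch1+/- tumours (log2 difference 1.17 ± 0.23 (SE), adjusted p = 0.00042). Ndufb5, of complex I, had 12.26, 12.35 and 12.30 in EP 1, EP 2 and TF, against 11.93, 11.37, 10.90 and 10.68 in the 4 Ptch1+/- tumours (log2 difference 1.09 ± 0.21 (SE), adjusted p = 0.000472). Within the Ptch1+/- group, Atp5o and Ndufb5 were highest in tumour 1, the array with the smallest Gapdh gap, and lowest in tumour 4, the array with the largest, and the part of the gap in the result was not tested. Cox4i1, of complex IV, differed by 0.15 (adjusted p = 0.37). It was called lower, at -0.33, with arrays centred on genes. Of 25 measured cytosolic ribosomal protein genes, 12 were higher and 0 lower, against 28.5% and 8.33% over all genes. With arrays centred on genes 1 was higher and 10 lower, against 11.5% and 44%, so no direction is given for that list. Rpl14 was higher by 1.07 (adjusted p = 5.19e-05).

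Of 10 measured long noncoding RNAs, 2 were higher and 4 lower, against 28.5% and 8.33% over all genes. With Ptch1+/- tumour 1 alone 0 were higher and 2 lower, against 10.8% and 5.71%. Malat1, a nuclear RNA kept in splicing speckles, had 11.32, 10.40 and 11.24 in EP 1, EP 2 and TF, against 12.58, 14.02, 13.99 and 14.07 in the 4 Ptch1+/- tumours (log2 difference -2.68 ± 0.59 (SE), adjusted p = 0.0012). Of its 7 probe sets, 6 were lower. Kcnq1ot1, an imprinted silencing RNA, had 7.73, 7.51 and 7.86 in EP 1, EP 2 and TF, against 9.68, 9.97, 10.18 and 10.46 in the 4 Ptch1+/- tumours (log2 difference -2.37 ± 0.33 (SE), adjusted p = 2.12e-05). Miat, a neuronal noncoding RNA, had 12.07, 11.70 and 11.45 in EP 1, EP 2 and TF, against 12.87, 13.60, 13.52 and 13.69 in the 4 Ptch1+/- tumours (log2 difference -1.68 ± 0.46 (SE), adjusted p = 0.00638). All 3 RNAs were lowest among Ptch1+/- arrays in tumour 1, and all its values still exceeded those of the CRISPR-Ptch1 arrays. Snhg1, the host of several small nucleolar RNAs, fell by 1.21 (adjusted p = 6.53e-06). Rian, of the imprinted Dlk1-Meg3 cluster, had 8.08, 9.10 and 7.77 in EP 1, EP 2 and TF, against 6.05, 6.57, 6.30 and 6.73 in the 4 Ptch1+/- tumours (log2 difference 1.91 ± 0.49 (SE), adjusted p = 0.0042), higher in all 3. Neat1, of the paraspeckle, differed by 0.21 (adjusted p = 0.785) and Meg3 by 0.31 (adjusted p = 0.605), each on its brightest probe set. All 11 probe sets of Meg3 had a positive difference, and 3 of them were called higher. A pair of protein-coding genes was also lower. H3f3b, histone H3.3, had 7.35, 7.69 and 6.84 in EP 1, EP 2 and TF, against 10.12, 9.95, 9.62 and 10.21 in the 4 Ptch1+/- tumours (log2 difference -2.68 ± 0.29 (SE), adjusted p = 2.12e-06), and Cox7c, of complex IV, had 7.57, 7.54 and 7.28 in EP 1, EP 2 and TF, against 8.67, 10.48, 10.41 and 10.57 in the 4 Ptch1+/- tumours (log2 difference -2.57 ± 0.41 (SE), adjusted p = 7.16e-05). These 2 genes were chosen after their values were seen, and which transcript their probe sets read was not analysed here.

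**Figure D4:**
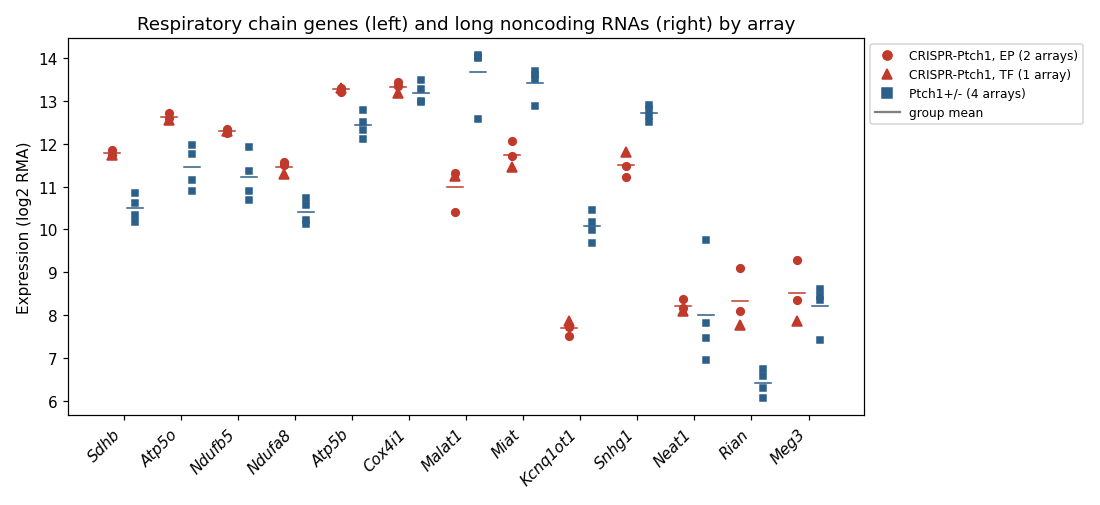
Expression (log2 RMA, vertical axis) of 6 respiratory chain genes and 7 long noncoding RNAs in EP (red circles), TF (red triangles) and Ptch1+/- (blue squares) arrays, with group means as lines. Sdhb, Atp5o, Ndufb5, Ndufa8 and Atp5b lay higher in all CRISPR-Ptch1 tumours, and Malat1, Miat, Kcnq1ot1 and Snhg1 lay lower.

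Chromatin regulators had calls in both directions. Of 25 measured Polycomb and DNA methylation genes, 3 were higher and 7 lower, against 28.5% and 8.33% over all genes, and 1 of each with Ptch1+/- tumour 1 alone. Ezh2, the methyltransferase of PRC2, had 11.44, 11.45 and 11.80 in EP 1, EP 2 and TF, against 12.21, 12.23, 12.50 and 12.36 in the 4 Ptch1+/- tumours (log2 difference -0.76 ± 0.15 (SE), adjusted p = 0.000518). Eed, another PRC2 core subunit, was higher by 0.68 (adjusted p = 0.00153, 3 of 4 scalings), and Phf1, an accessory subunit, fell by 0.87 (adjusted p = 0.00189). Of 19 chromatin genes mutated in medulloblastoma, 2 were higher and 5 lower. Brpf1, of a histone acetyltransferase complex, had 10.41, 10.48 and 10.51 in EP 1, EP 2 and TF, against 11.63, 11.26, 11.42 and 11.57 in the 4 Ptch1+/- tumours (log2 difference -1.002 ± 0.11 (SE), adjusted p = 2.56e-06). Ldb1, a LIM domain cofactor, fell by 1.06 (adjusted p = 0.000532), and Smarcb1, a core SWI/SNF subunit, was higher by 0.85 (adjusted p = 6.93e-06). The groups of Brpf1 did not overlap. Of 29 splicing regulators, 2 were higher and 6 lower, and 0 of either with Ptch1+/- tumour 1 alone. Nova2, a neuronal splicing factor, fell by 0.96 (adjusted p = 0.00339) on its brightest probe set. Hnrnpa1 had probe sets called in both directions.

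Lists of other cell types differed in how many markers were higher in CRISPR-Ptch1 tumours, and in bulk tissue fewer cells of a type and less RNA per cell cannot be told apart. Purkinje cells are the large inhibitory neurons of the cerebellar cortex, and 8 of their 11 measured markers were higher and 0 lower, against 28.5% and 8.33% over all genes (6 and 0 with Ptch1+/- tumour 1 alone, against 10.8% and 5.71%), with the mean level of the list at 7.86 to 9.66 in CRISPR-Ptch1 tumours and 5.91 to 6.25 in Ptch1+/- tumours. Calb1, the calcium buffer calbindin, had 9.67, 11.59 and 8.66 in EP 1, EP 2 and TF, against 4.59, 3.91, 4.07 and 3.61 in the 4 Ptch1+/- tumours (log2 difference 5.93 ± 0.77 (SE), adjusted p = 9.79e-06). Car8 had 9.93, 11.50 and 9.36 in EP 1, EP 2 and TF, against 5.07, 4.94, 4.71 and 4.79 in the 4 Ptch1+/- tumours (log2 difference 5.39 ± 0.44 (SE), adjusted p = 1.42e-07), and Pcp2 had 9.51, 11.33 and 8.24 in EP 1, EP 2 and TF, against 5.98, 5.27, 6.12 and 5.24 in the 4 Ptch1+/- tumours (log2 difference 4.04 ± 0.56 (SE), adjusted p = 1.75e-05). EP 2 was highest for all 3 and TF lowest of the CRISPR-Ptch1 group, while the Ptch1+/- values of Calb1 lay near the lower quartile of the arrays, so its difference is a lower limit. Adult cerebellum averaged 14.29 for Calb1.

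Genes of mature granule neurons were called higher in 9 of 17 cases and lower in 0, against 28.5% and 8.33% over all genes, and in 7 and 0 with tumour 1 alone. The TF tumour was lower than the EP tumours for 5 of the 17, against 1.66% of all genes. Gabra6, the alpha6 subunit of the GABA receptor and a mark of mature granule cells, had 9.77, 11.67 and 7.84 in EP 1, EP 2 and TF, against 5.56, 5.57, 5.19 and 4.52 in the 4 Ptch1+/- tumours (log2 difference 4.55 ± 0.62 (SE), adjusted p = 1.61e-05). Cbln3, a secreted synapse organiser, had 9.68, 11.19 and 7.93 in EP 1, EP 2 and TF, against 5.88, 6.20, 5.81 and 4.67 in the 4 Ptch1+/- tumours (log2 difference 3.97 ± 0.48 (SE), adjusted p = 5.05e-06). Pvalb, parvalbumin of interneurons and Purkinje cells, had 9.22, 10.86 and 8.21 in EP 1, EP 2 and TF, against 6.78, 6.28, 6.62 and 6.25 in the 4 Ptch1+/- tumours (log2 difference 2.95 ± 0.73 (SE), adjusted p = 0.00309). In each of these the order was EP 2, EP 1, TF and then all Ptch1+/- tumours. Gad1, which makes GABA, Vsnl1, a calcium sensor, Chn2, a Rac GTPase-activating protein, and Gng13, a G protein subunit, were among the 15 genes with the highest differences, at 4.95, 4.62, 4.15 and 3.46 log2 units. The Ptch1+/- means of Gad1 and Vsnl1 were near background, so their differences are lower limits. The other probe set of Gng13 was called lower (log2 difference -0.32). How much surrounding cerebellum each tumour piece held was not measured, and its part in these differences was not tested.

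Of 19 astrocyte and Bergmann glia genes, 13 were higher and 1 lower, against 28.5% and 8.33% over all genes, and 7 and 1 with Ptch1+/- tumour 1 alone. Hopx had 10.98, 11.71 and 10.30 in EP 1, EP 2 and TF, against 7.87, 9.23, 9.19 and 9.30 in the 4 Ptch1+/- tumours (log2 difference 2.10 ± 0.34 (SE), adjusted p = 8.73e-05), and Sparcl1, a secreted matricellular protein, had 12.43, 12.24 and 12.53 in EP 1, EP 2 and TF, against 10.03, 11.16, 9.79 and 10.10 in the 4 Ptch1+/- tumours (log2 difference 2.13 ± 0.37 (SE), adjusted p = 0.000157). S100b, a calcium-binding protein of astrocytes, was higher by 2.57 (adjusted p = 0.000686). The exception was the glutamate transporter Slc1a2, with 11.13, 11.09 and 11.73 in EP 1, EP 2 and TF, against 12.65, 12.20, 11.93 and 12.004 in the 4 Ptch1+/- tumours (log2 difference -0.88 ± 0.22 (SE), adjusted p = 0.00352). Of 14 oligodendrocyte and myelin genes, 7 were higher and 0 lower, with 3 and 0 after cyclic loess, 1 and 2 with arrays centred on genes and 2 and 0 with tumour 1 alone. Of 12 oligodendrocyte precursor genes, 4 were higher and 1 lower, with 2 and 2 after cyclic loess, after quantile normalisation and with arrays centred on genes. Gpr17 and Nkx2-2, of the oligodendrocyte lineage, were higher by 2.23 (adjusted p = 0.000389) and 1.85 (adjusted p = 2.2e-05), while the matrix proteoglycan Vcan had 9.13, 9.43 and 8.80 in EP 1, EP 2 and TF, against 11.16, 10.73, 9.79 and 10.47 in the 4 Ptch1+/- tumours (log2 difference -1.42 ± 0.29 (SE), adjusted p = 0.000597). All 8 probe sets of Vcan were lower.

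Of 12 resident microglia genes, 10 were higher and 0 lower, against 28.5% and 8.33% over all genes. Only 3 had higher values with no overlap, against 27.6% over all genes. Sall1, a factor of microglial identity, had 9.17, 8.46 and 7.98 in EP 1, EP 2 and TF, against 6.43, 6.25, 6.72 and 6.46 in the 4 Ptch1+/- tumours (log2 difference 2.07 ± 0.22 (SE), adjusted p = 1.33e-06). With tumour 1 as the only Ptch1+/- array, 1 of the 12 was higher, against 10.8% over all genes. In the list of macrophages, monocytes and granulocytes, 13 of 22 genes were higher and 0 lower, and 2 were higher with tumour 1 alone. Tyrobp, a signalling adaptor, had 11.54, 11.26 and 10.72 in EP 1, EP 2 and TF, against 10.21, 8.81, 7.91 and 7.88 in the 4 Ptch1+/- tumours (log2 difference 2.47 ± 0.37 (SE), adjusted p = 4.15e-05). C1qa, of the complement cascade, had 11.55, 11.52 and 10.47 in EP 1, EP 2 and TF, against 10.94, 9.91, 8.06 and 8.07 in the 4 Ptch1+/- tumours (log2 difference 1.93 ± 0.48 (SE), adjusted p = 0.00309), and Ptch1+/- tumour 1 exceeded TF. Of 25 meningeal, fibroblast and matrix genes, 12 were higher and 1 lower, against 28.5% and 8.33% over all genes, with 5 and 1 with arrays centred on genes, against 11.5% and 44%. Col1a2, a collagen chain, was highest in TF, with 9.23, 8.63 and 10.27 in EP 1, EP 2 and TF, against 8.28, 7.91, 7.63 and 6.94 in the 4 Ptch1+/- tumours (log2 difference 1.68 ± 0.45 (SE), adjusted p = 0.00536). With tumour 1 alone, 1 of the 25 was higher and 2 lower, against 10.8% and 5.71%. Of 19 endothelial and pericyte genes, 7 were higher and 0 lower. Of 10 choroid plexus genes and 13 T and B lymphocyte genes, 0 were higher, and 0 and 1 were lower.

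**Figure D5:**
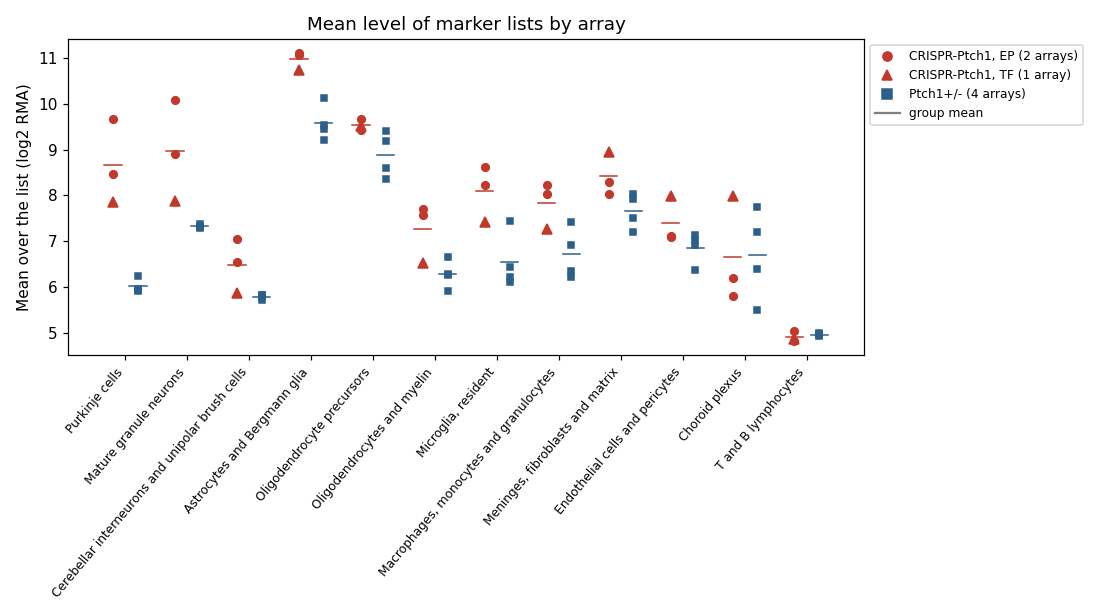
Mean level (log2 RMA, vertical axis) of 12 marker lists in the EP (red circles) and TF (red triangles) arrays of the CRISPR-Ptch1 group and in the Ptch1+/- arrays (blue squares), with group means as lines. Purkinje cell, mature granule neuron and astrocyte lists lay higher in all 3 CRISPR-Ptch1 arrays, and choroid plexus genes overlapped.

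Of 20 Notch pathway genes, 7 were higher and 0 lower, against 28.5% and 8.33% over all genes, with 5 and 1 after cyclic loess, against 18.9% and 17.6%, and 5 and 0 with tumour 1 alone. Of 27 BMP and TGF-beta genes 8 were higher and 1 lower, of 24 IGF and FGF genes 7 and 3, and of 27 WNT genes 5 and 4. After cyclic loess these counts were 5 and 3, 5 and 5, and 5 and 11. Hes5, a Notch effector of neural progenitors, had 8.72, 8.11 and 8.31 in EP 1, EP 2 and TF, against 4.94, 6.38, 6.43 and 6.51 in the 4 Ptch1+/- tumours (log2 difference 2.32 ± 0.40 (SE), adjusted p = 0.00014). Nrarp, a Notch feedback inhibitor, had 9.11, 8.61 and 9.16 in EP 1, EP 2 and TF, against 6.79, 6.57, 7.07 and 7.02 in the 4 Ptch1+/- tumours (log2 difference 2.10 ± 0.26 (SE), adjusted p = 5.56e-06). Igf1, insulin-like growth factor 1, had 7.46, 7.82 and 7.59 in EP 1, EP 2 and TF, against 6.13, 5.28, 5.73 and 5.32 in the 4 Ptch1+/- tumours (log2 difference 2.01 ± 0.18 (SE), adjusted p = 3.93e-07), and its receptor Igf1r had 9.79, 9.81 and 9.94 in EP 1, EP 2 and TF, against 10.48, 10.73, 10.71 and 10.66 in the 4 Ptch1+/- tumours (log2 difference -0.80 ± 0.20 (SE), adjusted p = 0.00366). The ligand was higher and the receptor lower in every CRISPR-Ptch1 tumour. Etv5, an ETS factor downstream of FGF, was higher by 1.93 (adjusted p = 0.00175). In the WNT list, Wnt5a had 7.13, 7.12 and 7.16 in EP 1, EP 2 and TF, against 5.37, 5.36, 4.82 and 4.75 in the 4 Ptch1+/- tumours (log2 difference 2.06 ± 0.37 (SE), adjusted p = 0.000192), and Lgr5, a receptor for R-spondins, fell by 1.07 (adjusted p = 0.0107). Chrd, the BMP inhibitor chordin, had 6.97, 7.004 and 6.99 in EP 1, EP 2 and TF, against 8.42, 8.03, 8.01 and 8.48 in the 4 Ptch1+/- tumours (log2 difference -1.25 ± 0.16 (SE), adjusted p = 1.1e-05), while Id4, a BMP-responsive inhibitor of bHLH factors, was higher by 2.55 (adjusted p = 0.0193). Without TF the Lgr5 difference was -0.51 (adjusted p = 0.127), and the Id4 call was lost without EP 1, EP 2 or Ptch1+/- tumour 4 (adjusted p = 0.0559 to 0.0861). For axon guidance, Epha5, an ephrin receptor, had 7.82, 7.97 and 7.96 in EP 1, EP 2 and TF, against 4.22, 5.88, 4.99 and 5.34 in the 4 Ptch1+/- tumours (log2 difference 2.81 ± 0.36 (SE), adjusted p = 7.78e-06), and Robo2, a receptor for SLIT repellents, had 4.46, 4.71 and 5.43 in EP 1, EP 2 and TF, against 6.53, 7.18, 7.41 and 7.37 in the 4 Ptch1+/- tumours (log2 difference -2.26 ± 0.55 (SE), adjusted p = 0.00288). Plxnb2, a semaphorin receptor of granule precursors, fell by 1.46 (adjusted p = 8.66e-05). Over the 31 axon guidance genes 4 were higher and 4 lower.

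Imprinted and immune genes were uneven. Ndn, the imprinted growth suppressor necdin, had 11.63, 11.87 and 9.81 in EP 1, EP 2 and TF, against 6.96, 9.34, 9.29 and 8.15 in the 4 Ptch1+/- tumours (log2 difference 2.67 ± 0.47 (SE), adjusted p = 0.000181), and Grb10, an imprinted adaptor of insulin signalling, had 7.46, 6.75 and 8.38 in EP 1, EP 2 and TF, against 4.59, 4.70, 5.32 and 5.05 in the 4 Ptch1+/- tumours (log2 difference 2.61 ± 0.84 (SE), adjusted p = 0.0179). Without TF the Grb10 difference was 2.19 (adjusted p = 0.0827). Of the 8 probe sets of Ndn, 5 were called higher and 1 lower. Of 22 measured imprinted genes, 5 were higher and 1 lower, against 28.5% and 8.33% over all genes. After cyclic loess the imprinted list gave 5 higher and 2 lower, against 18.9% and 17.6%. Of 20 interferon-stimulated genes, 5 were higher and 0 lower, a share no larger than the 28.5% over all genes, and 1 and 0 with tumour 1 alone. Ifih1, a sensor of double-stranded RNA, had 7.60, 7.12 and 9.05 in EP 1, EP 2 and TF, against 6.16, 5.51, 5.98 and 5.28 in the 4 Ptch1+/- tumours (log2 difference 2.19 ± 0.41 (SE), adjusted p = 0.000269), and Psmb8, a subunit of the immunoproteasome, had 7.79, 8.02 and 7.91 in EP 1, EP 2 and TF, against 6.104, 6.26, 5.67 and 5.91 in the 4 Ptch1+/- tumours (log2 difference 1.92 ± 0.16 (SE), adjusted p = 1.69e-07). Psmb8 was alike in the 3 CRISPR-Ptch1 tumours, while Ifih1 was highest in TF. B2m, the MHC class I light chain, had 12.12, 12.18 and 12.40 in EP 1, EP 2 and TF, against 12.30, 11.82, 10.23 and 10.23 in the 4 Ptch1+/- tumours (log2 difference 1.09 ± 0.39 (SE), adjusted p = 0.0333). Ptch1+/- tumours 1 and 2 lay near the CRISPR-Ptch1 values of B2m, and the call held under 2 of 4 scalings and was lost without any one of 5 of the 7 arrays (adjusted p = 0.0631 to 0.13). Ift20 and Kif3b, of intraflagellar transport in the cilium, were higher by 1.52 (adjusted p = 1.17e-06) and 1.18 (adjusted p = 1.74e-06). Of the 4 probe sets of Kif3b, 3 had a positive difference and only 1 was called. The cilium list of 28 had 10 higher and 2 lower, against 28.5% and 8.33% over all genes. That list gave 7 and 6 after cyclic loess, against 18.9% and 17.6%, and 7 and 8 after quantile normalisation, against 18.2% and 18.9%. With arrays centred on genes it gave 3 and 10, against 11.5% and 44%. Fdps, of cholesterol synthesis, had 10.33, 10.29 and 10.57 in EP 1, EP 2 and TF, against 8.995, 8.46, 8.20 and 7.82 in the 4 Ptch1+/- tumours (log2 difference 2.03 ± 0.32 (SE), adjusted p = 5.39e-05). The cholesterol list did not share its direction. Of 19 measured genes, 6 were higher and 4 lower, against 28.5% and 8.33% over all genes. After cyclic loess 3 were higher and 7 lower, against 18.9% and 17.6%.

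Several genes at the extremes were in no list. Mdk, the growth factor midkine, had 9.07, 8.48 and 10.43 in EP 1, EP 2 and TF, against 5.55, 5.75, 5.57 and 5.42 in the 4 Ptch1+/- tumours (log2 difference 3.76 ± 0.37 (SE), adjusted p = 8.32e-07). Gsto1, a glutathione transferase, was higher by 4.06 and Mtx2, of the mitochondrial outer membrane, by 3.66 (adjusted p = 0.00061 and 0.00127). Mid1, an X-linked ubiquitin ligase, had 6.57, 6.53 and 5.22 in EP 1, EP 2 and TF, against 11.81, 10.39, 8.52 and 8.44 in the 4 Ptch1+/- tumours (log2 difference -3.68 ± 1.004 (SE), adjusted p = 0.00634). Zbed6, a transposon-derived repressor, had 6.25, 6.05 and 6.03 in EP 1, EP 2 and TF, against 6.85, 9.12, 10.51 and 10.05 in the 4 Ptch1+/- tumours (log2 difference -3.02 ± 0.54 (SE), adjusted p = 0.000176). Its Ptch1+/- values were lowest in tumour 1, as were those of 2610024D14Rik at 4.57, against 7.27, 8.71 and 8.34 in tumours 2 to 4. Mndal, an interferon-inducible gene, had 4.55, 5.88 and 10.91 in EP 1, EP 2 and TF, against 11.74, 11.73, 11.50 and 11.62 in the 4 Ptch1+/- tumours (log2 difference -4.53 ± 1.58 (SE), adjusted p = 0.0283), low in both EP tumours and close to the Ptch1+/- values in TF. The call was lost without EP 1 (-3.25, adjusted p = 0.172), EP 2 (-3.91, adjusted p = 0.109) or Ptch1+/- tumour 2 or 4 (adjusted p = 0.0508 for each).

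The 3 CRISPR-Ptch1 tumours differed among themselves. The TF tumour differed from the EP tumours for 453 genes (2.49%) by limma in a fit with EP and TF apart, 151 higher (0.83%) and 302 lower (1.66%), where the 1 TF array is assumed to vary like the other groups. The arrays correlated over genes at r = 0.994 between EP 1 and EP 2, 0.982 between EP 1 and TF and 0.973 between EP 2 and TF. Olig3, a bHLH factor of the rhombic lip, was at 4.26 in TF, against 10.73 and 11.07 in EP 1 and EP 2, and ranged from 7.01 to 10.54 in the Ptch1+/- tumours. TF and EP were far apart for it (TF minus EP, log2 difference -6.64, adjusted p = 0.00017). Shisa3 was at 4.32 in TF, against 8.51 and 8.61 in EP 1 and EP 2 (log2 difference -4.24, adjusted p = 0.0102), and Lcn2, lipocalin 2, at 5.15 in TF, against 11.24 and 10.87 in EP 1 and EP 2 (log2 difference -5.90, adjusted p = 0.0102). Olig3 and Shisa3 lay near the lower quartile of the arrays in TF. Dll3, a Notch ligand, was at 11.38 in TF, against 7.77 and 7.10 in EP 1 and EP 2 (log2 difference 3.95, adjusted p = 0.00591). Samd9l, an interferon-stimulated gene, was at 10.55 in TF, against 5.80 and 6.09 in EP 1 and EP 2 (log2 difference 4.61, adjusted p = 0.000398). Of 20 interferon-stimulated genes, 7 were higher in TF and 0 lower, against 0.83% and 1.66% over all genes, among them Usp18, at 8.65 in TF, against 4.91 and 4.995 in EP 1 and EP 2 (log2 difference 3.70, adjusted p = 0.00822). Between the models, leaving out TF gave -1.49 for Dll3 (adjusted p = 0.0303), -2.66 for Samd9l (adjusted p = 0.000139) and 2.75 for Lcn2 (adjusted p = 0.0154). Of 24 synaptic vesicle genes, 7 were lower in TF and 0 higher. Without EP 2 the count fell to 99 genes. Xist was high in EP 2 and in Ptch1+/- tumour 3 only, so each model held 1 such array, and the Y-linked Eif2s3y was near background in the same 2 arrays.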

How the data were processed

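Total RNA of cerebellar tumours was measured on Affymetrix mouse genome arrays. The deposited log2 values are RMA summaries that the authors obtained from Affymetrix Expression Console (version 1.3.1); which arrays were normalised together is not given in the sources used here. No values were missing, and array scans carry no read depth, so the number of arrays limits precision. The lower quartile of the arrays was 4.40 to 4.61, and a group mean near it was read as near background.

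Of 45101 probe sets, 34958 named 1 gene, and the brightest on average over 23 arrays was kept for each of 18194 genes. Differences between groups were tested in limma (version 3.58.1, R version 4.3.3; linear model and moderated statistics with defaults) in 1 fit of 6 groups, and of 7 groups for TF minus EP, with Benjamini-Hochberg adjustment over all genes and calls at an adjusted p under 0.05. The fit was tested on simulated data.

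Gene lists (49, 933 measured genes) came from general knowledge. Members and lists were chosen with earlier results of these data known. Named genes were up to 6 list members with the largest differences, members of defined role that were not called, Ptch1, and the 15 highest and 15 lowest genes called the same way with 2 array centrings and without overlap; which to print was chosen after their values were seen, and some are outside this rule. Trp53 was not analysed here. Promoters came from RefSeq (GRCm38.p6). Alternatives were 4 scalings, other probe set rules, a filter on dim genes, other limma settings, subsets of arrays and each array left out; Ptch1+/- tumour 1 alone was added after seeing the data.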

Additional observations from a re-analysis of the deposited data

Results flagged for a closer look

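Among 177 named genes, 12 had a single Ptch1+/- tumour far from the other 3, and chance alone marks about 1 in 20 groups. The tumour that stood apart was at 13.62 for Fos, 12.62 for Insm1, 11.81 for Cdk4, 9.71 for Srebf2, 7.87 for Hopx, 4.94 for Hes5 and 3.73 for Gad1. It was at 12.58 for Malat1, 12.14 for Hnrnpa1 and 8.67 for Cox7c, and at 12.73 for Xist and 3.13 for Eif2s3y.

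For 13 named genes the TF tumour differed from the EP tumours at an adjusted p under 0.05 in limma. The log2 difference of TF minus EP was 4.61 for Samd9l, 3.95 for Dll3, 3.72 for Pdlim3 and 3.70 for Usp18. It was -6.64 for Olig3, -5.90 for Lcn2, -4.24 for Shisa3, -2.58 for Cntn2, -2.51 for Cbln3, -1.90 for Neurod1, -1.68 for Lgr5, -1.65 for Cdon and -1.58 for Cacna1c. With 1 TF array these values have no replicate of their own.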

How the results depend on the processing

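The count of 6704 changed genes was 10084 with arrays centred on genes, 4074 with the TF tumour alone, 3011 with Ptch1+/- tumour 1 alone and 2184 with a minimum of 2-fold, and lay between 5306 and 10035 under the other settings, leaving-out apart. Leaving out each array in turn gave 5527 to 7059 genes, of which 77.4% to 79.7% were higher. The share of calls higher in CRISPR-Ptch1 tumours was 77.4% as deposited, 20.7% with arrays centred on genes, 49% after quantile normalisation, 51.7% after cyclic loess and 65.5% with Ptch1+/- tumour 1 alone. The TF minus EP count of 453 was 383 without EP 1 and 99 without EP 2. Labels share only the numbers 1 and 2 and do not say that they pair tumours. A replicate block, in which the TF tumour drops out, gave 5723 genes, 79% of them higher, and the deviations of same-numbered tumours correlated at 0.14 and 0.07. Of 151 named genes that were called, 128 kept the call without each array in turn, 136 under all 4 scalings and 61 under every setting. Directions reversed with the mean of the probe sets for Ptch1 (-0.18), Bcl2 (-0.56), Pax6 (0.14) and Top2a (-0.39), and with the probe set of highest SD for Ptch1 (-1.53), Bcl2 (-2.001), Pax6 (0.44), Orc1 (0.039) and Rrm2b (-0.51). They reversed with arrays centred on genes for Cox4i1 (-0.33) and Rps3 (-0.15), and with Ptch1+/- tumour 1 alone for B2m (-0.069). The TF tumour alone gave 2.45 for Dll3, 1.95 for Samd9l, -3.15 for Lcn2 and -0.63 for Shisa3. Olig3 was at 2.18 with array weights, 2.03 with the EP tumours alone, which is also the value without TF, and 1.74 with the replicate block, and leaving out each array in turn gave -1.37 to 2.03. The cause of these changes was not tested. Other probe sets of the changed genes shared the sign in 70.0% of cases for genes called higher and 74.3% for genes called lower, and were called the opposite way in 11.4% and 5.44%.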
